A study of Mus musculus with 14 samples.

Results

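The family described here is that of the cytosolic ribosomal proteins, whose mRNAs were sequenced from macrophages derived from blood monocytes. The cells were sorted from the mouse CNS (central nervous system) when experimental autoimmune encephalomyelitis (EAE), an immune attack on myelin used as a model of multiple sclerosis, was at its peak. Genes were taken by symbol: Rpl or Rps with a number and at most a trailing a, x, l or l1, together with Rplp0, Rplp1, Rplp2 and Rpsa, leaving out S6 kinases and pseudogenes. This rule found 84 of the 19940 genes in the deposited table, 52 of the large subunit (Rpl and Rplp) and 32 of the small subunit (Rps and Rpsa). It missed 5 genes whose products are also ribosomal proteins or carry one, Rps3a1 and Rpl36al among them, and these are given beside the family. Of the 84 genes, 81 were abundant enough to be tested. The other 3, Rpl32l, Rpl39l and Rps12l1, were near 0 in most libraries.

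There were 14 libraries, 7 from mCAT and 7 from wt macrophages. mCAT cells came from donors with the CD45.2 allele that carried CCR2creERT2/+, an inducible Cre recombinase at 1 copy of Ccr2, and mcat lsl/wt, 1 copy of a catalase for mitochondria that Cre switches on. wt cells came from donors with the CD45.1 allele, so the groups differ in the CD45 allele as well as in the added genes. Both kinds of marrow had been mixed 50:50 and given to lethally irradiated hosts, every sample is labelled with tamoxifen, and monocyte-derived macrophages (MdMs) were sorted by donor marker. Expression of the catalase rests on Ccr2-driven Cre, and the labels give neither the share of cells that recombined nor the genotype of the hosts. Library codes start with C2 in 6 libraries and with C1 in 8; what these codes stand for is not stated in the sources used here. They share a stem in 6 pairs of 1 mCAT and 1 wt library. The labels do not say that libraries of a group came from separate mice, so p-values measure the spread between these libraries.

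Ribosomal proteins bind ribosomal RNA to form the large and small subunits of the ribosome, which translate all nuclear-encoded mRNA. Cells make the proteins in matched amounts, and their mRNAs are among the most abundant of any cell. Most of these mRNAs begin with a C followed by a run of pyrimidines, the terminal oligopyrimidine (TOP) start, through which the kinase mTORC1 and the RNA-binding protein LARP1 set how strongly they are translated and how stable they are. In macrophages, growth factors and inflammatory signals act on mTORC1, and some ribosomal proteins have further roles, such as the human RPL13A, which leaves the ribosome of interferon-treated monocytes to silence inflammatory mRNAs.

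The starts of 10 family members show this feature and its limits. Each line gives 30 bases around the annotated start of the gene, from NCBI RefSeq on GRCm38.p6, with the start at base 16. The first 7 hold a C followed by at least 4 further letters that are each C or T, beginning within 5 bases of the start on the gene's own strand; the capitals mark that run. The windows lie at chr2:39005117-39005146 (minus strand) for Rpl35, chr4:86857353-86857382 (minus strand) for Rps6, chr3:90213634-90213663 (minus strand) for Rps27, chr14:24490663-24490692 (plus strand) for Rps24, chr3:28805493-28805522 (plus strand) for Rpl22l1, chr2:32961697-32961726 (plus strand) for Rpl12 and chr17:24720048-24720077 (plus strand) for Rps2. The last 3 hold no such run and are shown because their transcripts recur in the results: chrX:74270801-74270830 (plus strand) for Rpl10, chr4:136053379-136053408 (minus strand) for Rpl11 and chr17:33824548-33824577 (minus strand) for Rps28.
Rpl35: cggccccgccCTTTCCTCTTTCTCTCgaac
Rps6: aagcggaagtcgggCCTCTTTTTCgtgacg
Rps27: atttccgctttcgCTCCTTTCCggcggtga
Rps24: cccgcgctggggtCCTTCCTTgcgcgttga
Rpl22l1: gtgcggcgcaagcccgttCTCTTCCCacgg
Rpl12: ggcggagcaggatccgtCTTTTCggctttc
Rps2: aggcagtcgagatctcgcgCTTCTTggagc
Rpl10: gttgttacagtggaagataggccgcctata
Rpl11: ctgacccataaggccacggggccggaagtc
Rps28: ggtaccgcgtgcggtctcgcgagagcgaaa
Of the 84 family members 62 had an entry in the table of starts, and 30 of them (48.4%) held such a run. The same held for 23.6% of 9265 other genes tested here and for 21.2% of all 27025 genes of the table. The share is of genes with a run at any of their listed starts, and an annotated start can lie a few bases from the one in use. The 29 tested members with a run had a median log2 difference (mCAT minus wt) of -0.33, and the 31 tested members with an entry and no run one of -0.27.

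Estimated depth (in M, 1e6 reads) was 27.1 M at the lowest and 47.9 M at the highest for mCAT, and 16.5 M (wt 7) and 44.2 M for wt. Values are normalised counts, obtained by undoing the log2-type transformation of the deposited table. Cat, the mouse gene of catalase, stood at 2831 ± 808 normalised counts in mCAT and 2155 ± 626 in wt libraries (SD, n = 7 each; adjusted p = 0.878, limma); whether these values include the added catalase is not stated. The macrophage genes Csf1r and Adgre1 were abundant in all libraries, with means of 65115 and 18997 in mCAT and 45840.4 and 15891 in wt libraries. Library wt 1 stood apart in mitochondrially encoded transcripts, which took 2.69% of its normalised counts against 0.402% to 1.46% in the other 13 libraries, so counts for the family are also given without it.

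Levels differed widely between family members. Per kilobase of coding sequence, Rpl41, which encodes the shortest ribosomal protein, was highest at 188329 ± 49236 normalised counts (SD, n = 14), followed by Rplp0 at 60314 ± 7832, the base of the stalk that recruits translation factors. Also among the 5 highest were Rps9 at 43685 ± 7643 and Rps29 at 41420.0 ± 14768, whose spreads overlap. Rpl41 has a coding length of 75 nucleotides; per kilobase of whole transcript it stood at 24269 and Rplp0 above it at 42238. At the low end, the muscle paralogue Rpl3l stood at 32.8 ± 16.6 and the germ cell paralogue Rpl39l at 42.0 ± 44.0 normalised counts per kilobase, both far under the next gene. Rpl7l1, a relative of Rpl7, followed at 3291 ± 435, Rps12 at 3573 ± 1222 and Rpl28 at 4421 ± 909, again with overlapping spreads. The pseudogenes Rps12-ps3 and Rpl28-ps1, identical to their parents over 494 and 414 bases, stood at 0.53 and 0.58 times the means of Rps12 and Rpl28. The low places of Rps12 and Rpl28 therefore depend on how reads were divided between copies.

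**Figure D1:**
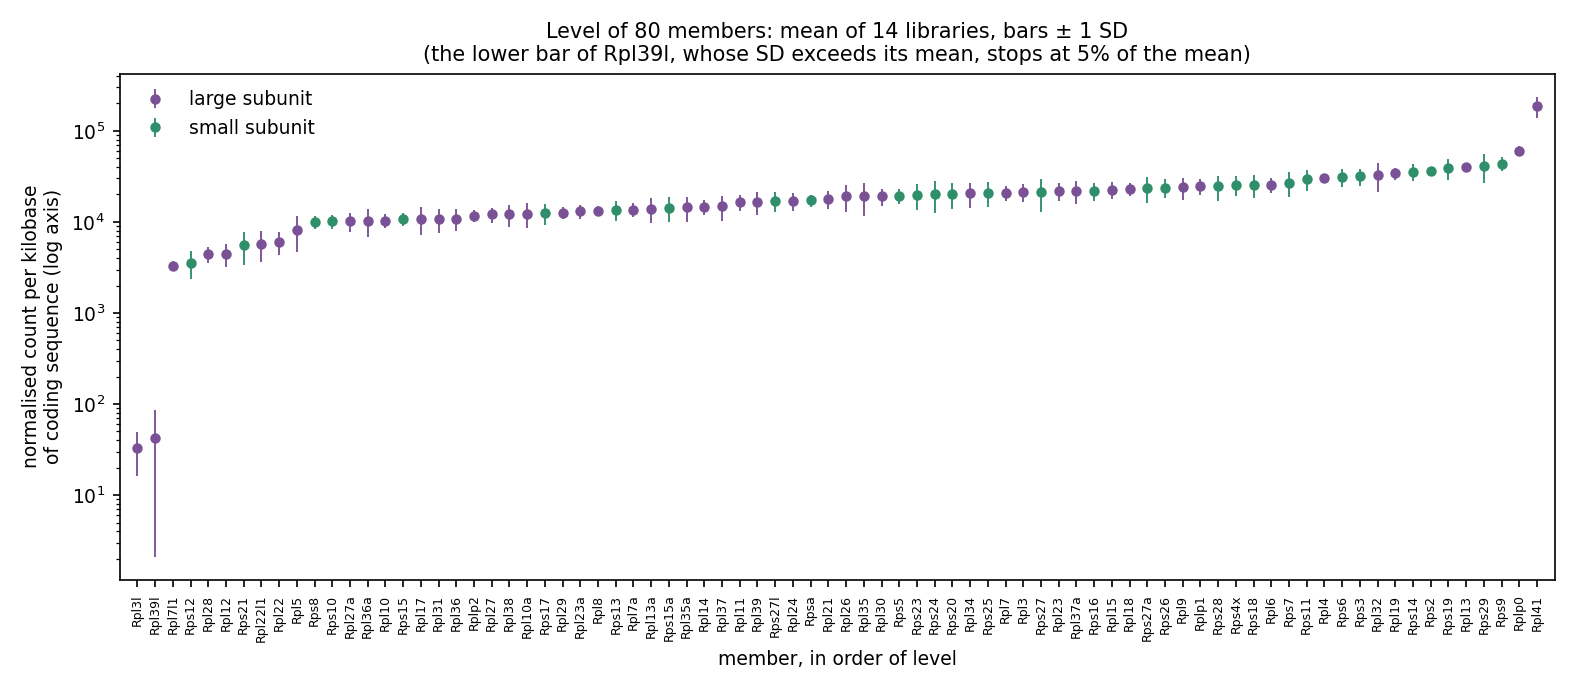
Mean normalised count per kilobase of coding sequence of 80 of the 81 members with a coding length (log axis), in order of level; bars are ± 1 SD over 14 libraries and colours mark the subunit. Rpl3l (32.8) and Rpl39l (42.0) lie far below all others, and Rpl41 (188329) lies above them.

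Together the 84 genes took 1.72% to 2.42% of all normalised counts in mCAT libraries (mean 2.03% ± 0.287, SD, n = 7) and 2.10% to 3.08% in wt libraries (mean 2.47% ± 0.416). The ranges overlap: wt 2, wt 3, wt 4 and wt 5 lay within the mCAT range, and wt 1, wt 6 and wt 7 above it. The large subunit genes took 1.22% ± 0.157 in mCAT and 1.46% ± 0.221 in wt libraries, and the small subunit genes took 0.811% ± 0.130 in mCAT and 1.01% ± 0.195 in wt libraries. Because libraries are read relative to their own total, less ribosomal protein mRNA per cell and more of other mRNA cannot be told apart, nor can fewer cells of a type and less RNA per cell.

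Most genes of the family were high or low in the same libraries. The median deviation of the 81 tested genes from their own means, on the log2 scale, was -0.52 in mCAT 3, -0.39 in mCAT 2, -0.27 in mCAT 4, -0.17 in mCAT 1, 0.09 in mCAT 7, 0.12 in mCAT 6 and 0.18 in mCAT 5. In wt libraries it was -0.18 in wt 3, -0.10 in wt 2, -0.03 in wt 5, 0.06 in wt 4, 0.30 in wt 1, 0.48 in wt 7 and 0.54 in wt 6. In mCAT 2 and mCAT 3 a single gene of the 81 lay above its own mean, in wt 7 it was 79 and in wt 6 it was 78. Over the 14 libraries the median Pearson correlation between 2 members was 0.839 over 3240 pairs of genes, and 0.813 after the genotype means were removed. Among 1002 other genes taken at even spacing it was -0.0036. These correlations are across genes that share the same libraries and their depth, so they describe these libraries only.

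**Figure D2:**
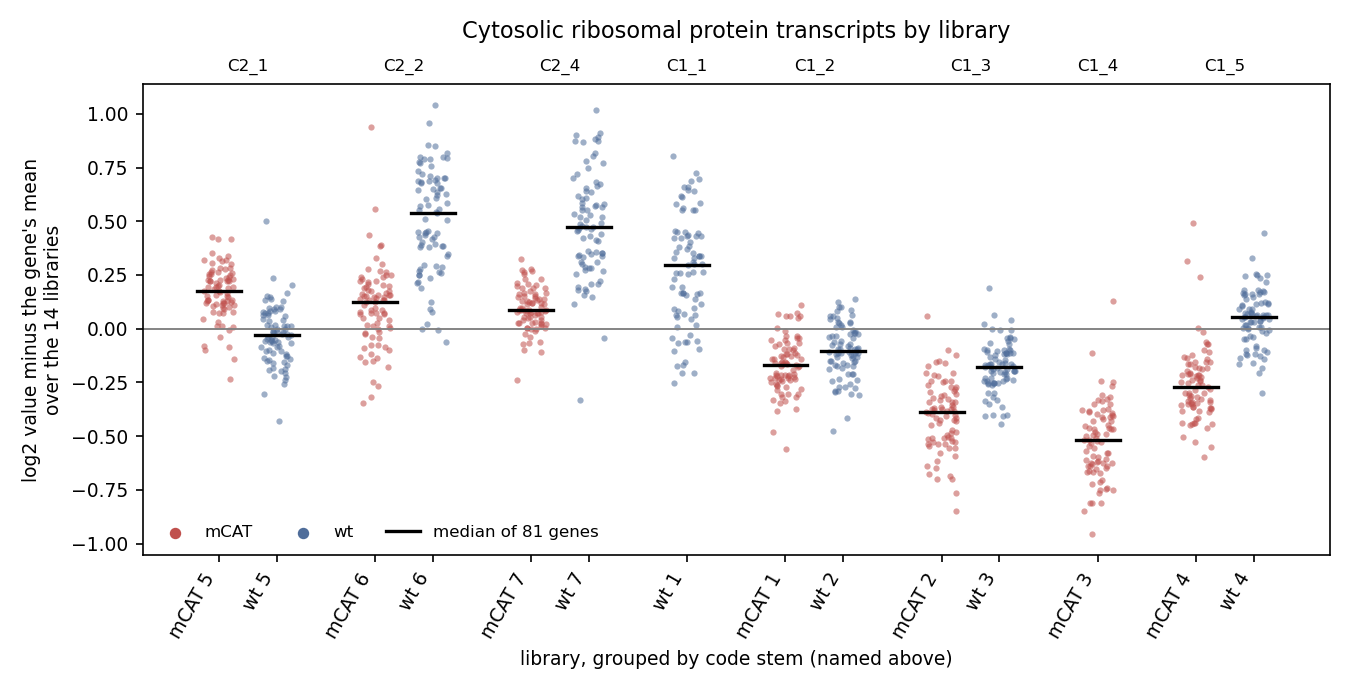
Deviation of each of the 81 tested members from its own mean over the 14 libraries (log2 scale) by library, with mCAT left of wt within each code stem and C2 stems left of C1 stems; black lines are medians. Medians run from -0.52 in mCAT 3 to 0.54 in wt 6, and mCAT 5 is the only mCAT library whose median lies above that of its stem partner.

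Small subunit genes correlated with each other at a median of 0.874 and large subunit genes at 0.800. Of the 81 tested members, those that followed the others least were Rpl7l1 (r = -0.437 with the mean of the other members), Rpl6l (0.192) and Rpl3l (0.641). The largest SDs over the libraries among tested members were those of Rps27 (0.535 on the log2 scale), Rps24 (0.534) and Rpl5 (0.524). The smallest among them were those of Rpl4 (0.163), whose product lines the exit tunnel, Rps2 (0.170) and Rpl7l1 (0.179). For Rpl5, 3 libraries stood above the rest: it was at 13063 normalised counts in mCAT 6, 13829 in wt 7 and 10893 in wt 6, against 3967 to 7263 in the other 11. In mCAT 6 it was 0.94 above its mean, whereas the median of the family there was 0.12. Of the 31-base words of the Rpl5 transcript 49.0% occur in the gene Gm15500, which averaged 8568 normalised counts. How reads were divided between Rpl5 and Gm15500 is uncertain.

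No member of the family was called between mCAT and wt macrophages, while nearly all of them were slightly lower in mCAT by their fitted value. Of the 81 genes 80 had a log2 difference (mCAT minus wt) below 0, against 50.3% of all 12096 genes tested. The median was -0.28 and the range -0.51 (Rps24 and Rpl35) to 0.0021 (Rpl7l1), with SEs of 0.11 to 0.25. With each library centred on the median of the genes outside the family, Rpl7l1 was at -0.0096 and all 81 lay below 0. None passed an adjusted p of 0.05 in limma (adjusted p from 0.878 to 0.999), where 0.198% of all genes did. At an unadjusted p under 0.05 there were 27, all lower in mCAT, or 33.3% of the family; lower genes at that p made up 3.03% of all genes tested. Members are strongly correlated, so their count is not 81 separate observations.

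With libraries paired by stem, the median of the family was -0.20, 79 of 81 genes lay below 0 and again none was called (lowest adjusted p = 0.360 for Rps7, limma), beside 0.322% of all genes. At an unadjusted p under 0.05 there were 33, all lower, against 4.24% of all genes that were lower at that p. No member separated the genotypes without overlap, which 0.240% of all genes tested did. Without wt 1 the median over the family, without pairing, was -0.26. Leaving out each library in turn moved it between -0.34 (without mCAT 5) and -0.21 (without wt 6).

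**Figure D3:**
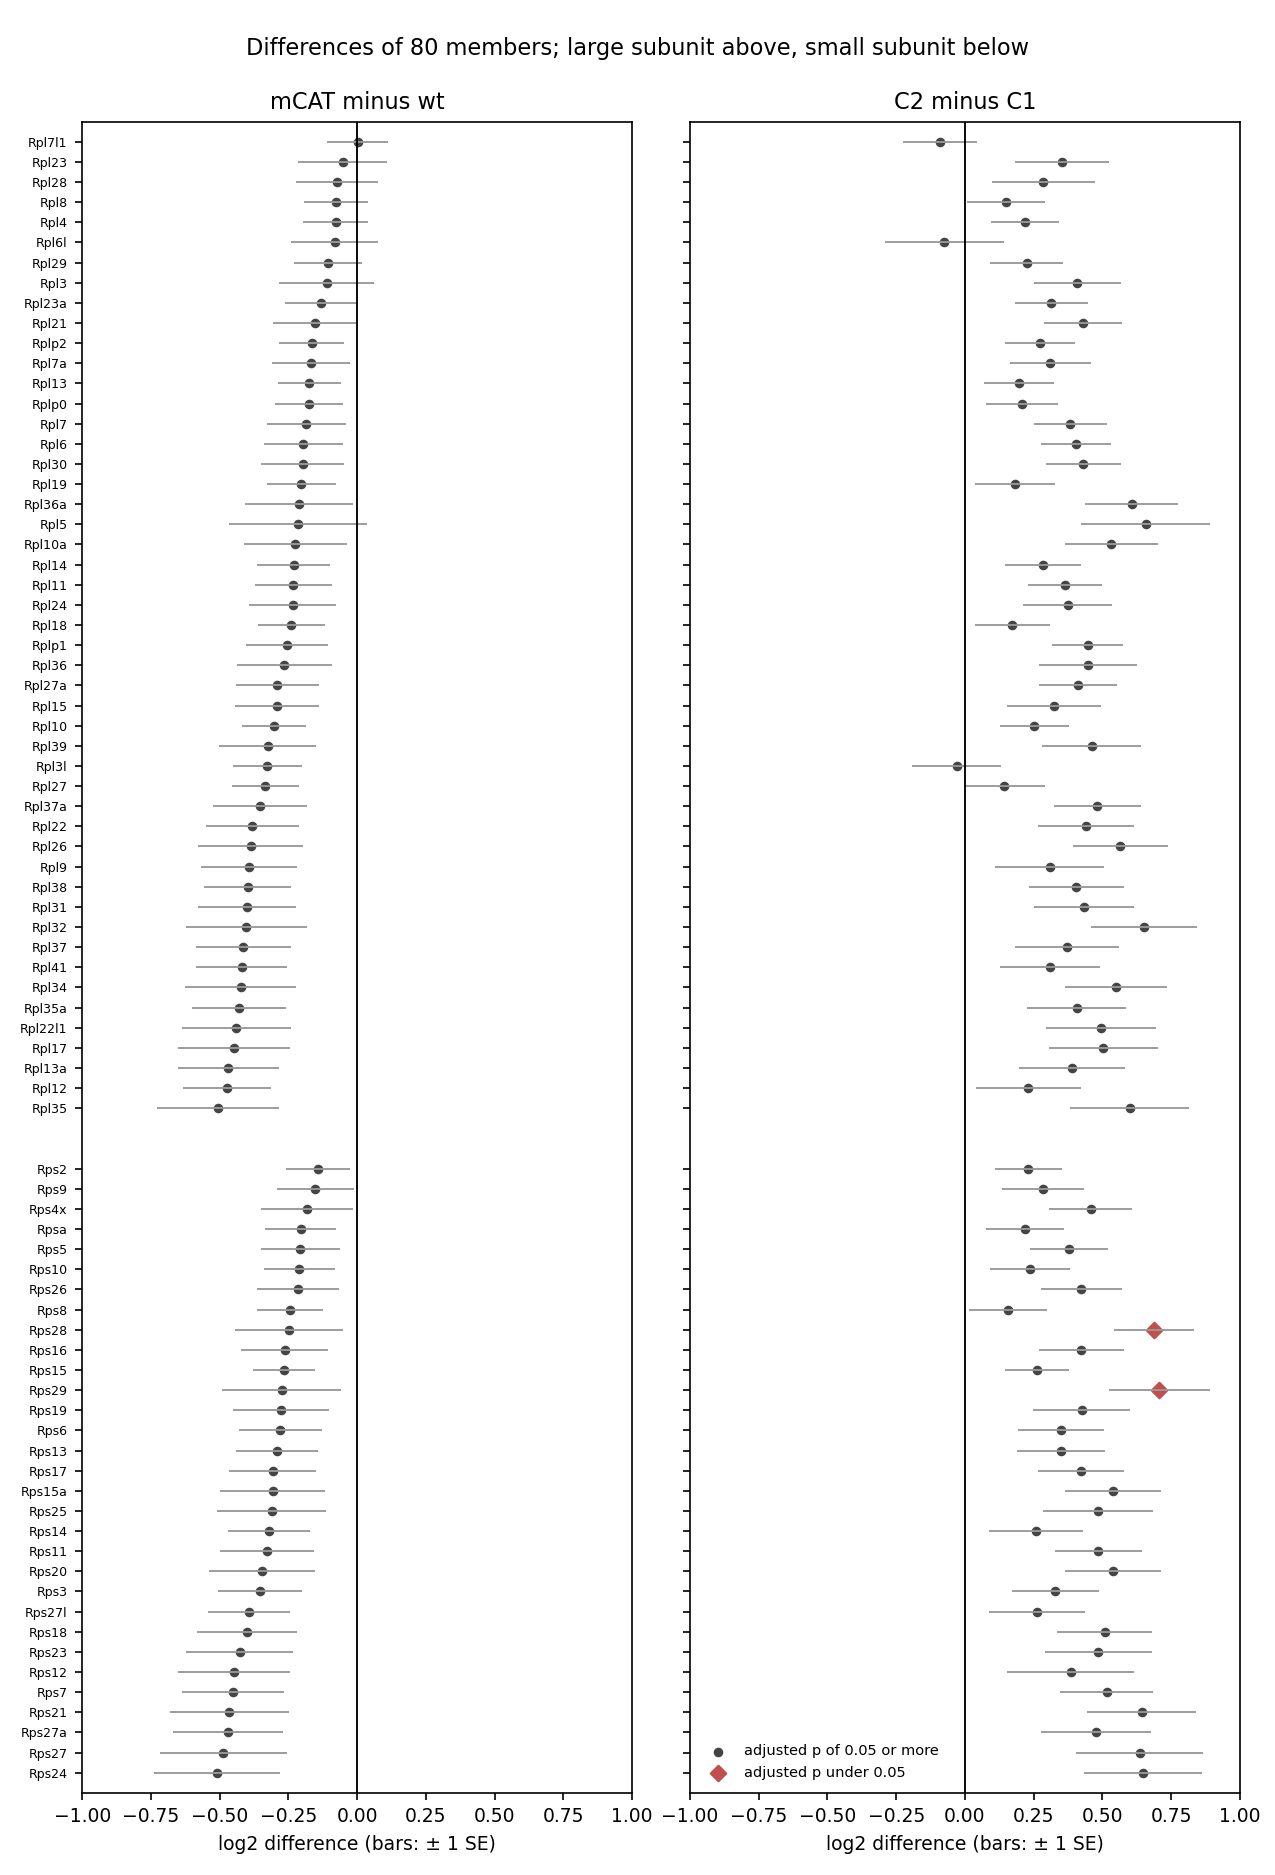
Log2 difference of 80 of the 81 tested members, mCAT minus wt on the left and C2 minus C1 on the right, with bars of ± 1 SE; large subunit genes are above and small subunit genes below, in order of the genotype difference. On the left all points but that of Rpl7l1 (0.0021, and -0.0096 with centred libraries) lie below 0 and none is called; on the right all but Rpl7l1, Rpl6l and Rpl3l lie above 0, and Rps28 and Rps29 are called.

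Single members show how the groups overlapped. Rpl12 (ENSMUSG00000038900), whose product sits at the foot of the stalk, had the smallest unadjusted p of the tested members in the limma fit without pairing. It ranged from 1217 to 2347 normalised counts over the mCAT libraries (median 1889) and from 1882 to 3436 over the wt libraries (median 2181). Of the wt libraries 4 lay within the mCAT range, for a mean of 1824 ± 385 in mCAT and 2591 ± 635 in wt libraries (SD, n = 7 each). The log2 difference was -0.47 (SE 0.16, adjusted p = 0.878 in limma), and an exact permutation test of 7 against 7, two-sided, gave p = 0.0204. An exact test that flips signs over the 6 stem pairs, two-sided, gave p = 0.0938.

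Rpl27, a large subunit gene, ranged from 3399 to 5846 normalised counts over the mCAT libraries (median 4352) and from 4819 to 6547 over the wt libraries (median 5203); its log2 difference was -0.33 (SE 0.12, exact permutation p = 0.0146, n = 7 each). Rps27l, the p53-induced paralogue of Rps27, had 2583, 3491 and 4897 normalised counts as lowest, median and highest in mCAT and 3799, 4627 and 6219.9 in wt libraries, a log2 difference of -0.39 (SE 0.15). Rpl10, which joins the large subunit last and is needed for it to meet the small one, had 5095, 6237 and 6873 in mCAT and 6354, 6859 and 9412 in wt libraries, a log2 difference of -0.30 (SE 0.12, exact permutation p = 0.0117, n = 7 each). In all 3 genes the highest mCAT library was mCAT 5, and its value lay inside the wt range. Exact sign flips over the 6 stem pairs gave p = 0.0938 for Rpl27 and p = 0.0625 for Rpl10. Much of the Rpl10 sequence also occurs in the more abundant copy Rpl10-ps3 described below, whose log2 difference was -0.14 (SE 0.15). The value of Rpl10 therefore depends on how reads were divided between the copies.

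Rpl3l was the only tested member lower in mCAT in all 6 stem pairs, at low counts. It stood at 27.8 ± 10.2 normalised counts in mCAT and 52.3 ± 21.0 in wt libraries (SD, n = 7 each), with a log2 difference of -0.33 (SE 0.12) on the deposited scale, which compresses low values. The exact permutation p was 0.00816 for 7 against 7. Its adjusted p over all genes was 0.878 without and 0.591 with pairing.

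Among the stalk proteins, Rplp0 stood at 53976 ± 7104 normalised counts in mCAT and 60742 ± 6561 in wt libraries, with a log2 difference of -0.17 (SE 0.12). Rplp1 and Rplp2 had log2 differences of -0.26 (SE 0.15) and -0.17 (SE 0.12). Rpl5 and Rpl11, which hold the 5S ribosomal RNA and bind the p53 ligase MDM2 when ribosome assembly fails, had log2 differences of -0.22 (SE 0.25) and -0.23 (SE 0.14). Of the S6 kinase substrate Rps6 there were 21015 ± 3646 normalised counts in mCAT and 25684 ± 5532 in wt libraries, a log2 difference of -0.28 (SE 0.15). Rpl13a, the mouse gene of the silencing factor named above, had 4897, 7322 and 8848 as lowest, median and highest in mCAT and 6821, 8995 and 13292 in wt libraries. Its log2 difference was -0.47 (SE 0.18, exact permutation p = 0.0396, n = 7 each), and wt 1, wt 4, wt 6 and wt 7 lay above every mCAT library. For Rpl13a, exact sign flips over the 6 stem pairs gave p = 0.0938.

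Rpsa, also known as the laminin receptor gene, had a log2 difference of -0.21 (SE 0.13) and Rps19, the gene most often mutated in human Diamond-Blackfan anaemia, one of -0.28 (SE 0.17). The X-linked Rps4x was at -0.18 (SE 0.17). Of the genes with the smallest spread, Rpl4 was at -0.08 (SE 0.12) and Rps2 was at -0.14 (SE 0.12). Rpl3 was at -0.11 (SE 0.17) and Rpl7 at -0.19 (SE 0.14). Rps24 at -0.51 (SE 0.23) and Rps27 at -0.49 (SE 0.23) lay farthest from 0 among the genes named for their spread. None of these genes was called.

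Within pairs, the median of the family was lower in mCAT in 5 stems and higher in 1. The median difference of the 81 genes was -0.42 for stem C2_2 (72 genes lower in mCAT), -0.39 for C2_4 (76), -0.31 for C1_5 (76), -0.23 for C1_3 (74) and -0.06 for C1_2 (62). For stem C2_1 it was 0.21, with 5 of 81 genes lower. Other genes had medians between -0.01 and 0.01 in every pair, with 48.2% to 51.8% of them lower. Of the 81 genes 48 were lower in mCAT in 5 pairs and 1 in all 6. Within the C2 libraries alone (3 mCAT against 3 wt) the median difference was -0.19 with 77 genes below 0, and within the C1 libraries (4 against 4) -0.34 with 80. A test of whether the genotype difference itself differed between C2 and C1 called no member, as it called 0.0% of all genes (limma interaction term); 2 members, or 2.47%, had an unadjusted p under 0.05, beside 2.7% of all genes.

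T cell markers also had lower values in mCAT libraries, none of them called. Of the tested markers of natural killer cells 4 of 5 and of B cells 6 of 7 were below 0 as well. Of 12 macrophage markers 9 were above 0 (median 0.18), and none of these was called. Summed over 14 T cell markers, normalised counts ran from 227 to 602 in mCAT and from 352 to 1251 in wt libraries, and 11 of the 12 tested markers were below 0 with a median of -0.39. Cd3e stood at 13.9 in mCAT and 33.0 in wt libraries, and Cd8a, at 0 in 5 libraries, stood at 3.58 in mCAT and 4.28 in wt libraries. The T cell sum was highest in wt 1 (1251) and was lower in the mCAT than in the wt library of every stem pair. The part of these cell types in the result was not tested.

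Between the library code series, C2 against C1, nearly all members were higher in C2 by their fitted value, and 2 small subunit genes, Rps28 and Rps29, were called. Of the 81 genes 78 had a log2 difference (C2 minus C1) above 0, against 49.0% of all genes, with a median of 0.40 and a range of -0.09 (Rpl7l1) to 0.71 (Rps29). The fit takes genotype as a covariate and the stem as a random block. Called were 2 of 81 (2.47%), beside 2.89% of all genes, so the share of calls in the family was no larger than over all genes. At an unadjusted p under 0.05, 51 were higher (63.0%), against 9.24% of all genes. The median was 0.47 within mCAT libraries (3 C2 against 4 C1) with 78 genes above 0, and 0.34 within wt libraries (3 against 4) with 77.

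Rps28 (ENSMUSG00000067288) stood from 5461 to 8591 normalised counts in C2 libraries (median 6197) and from 3190.0 to 4762 in C1 libraries (median 3968), without overlap. The means were 6575 ± 1211 (SD, n = 6) in C2 and 4028 ± 572 (n = 8) in C1, a log2 difference of 0.69 (SE 0.15, adjusted p = 0.0142 in limma). Rps29 (ENSMUSG00000034892), a zinc-binding protein of the small subunit head, stood from 6176 to 12455 in C2 libraries (median 8335) and from 4444 to 6293 in C1 libraries (median 5467), with 1 C2 library inside the C1 range. Its log2 difference was 0.71 (SE 0.18, adjusted p = 0.0462), close to the threshold: 9 of the 14 fits that leave out a library ended the call (those without mCAT 1, mCAT 2, mCAT 3, mCAT 5, mCAT 7, wt 3, wt 4, wt 6 or wt 7), with an adjusted p of up to 0.116 without wt 7. A filter of 50 normalised counts, centred libraries and a fit without trend also ended it (adjusted p = 0.0526, 0.0551 and 0.0577, limma), while Rps28 was called in all of these fits. Both genes are mutated in some people with Diamond-Blackfan anaemia, a failure of red cell formation.

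**Figure D4:**
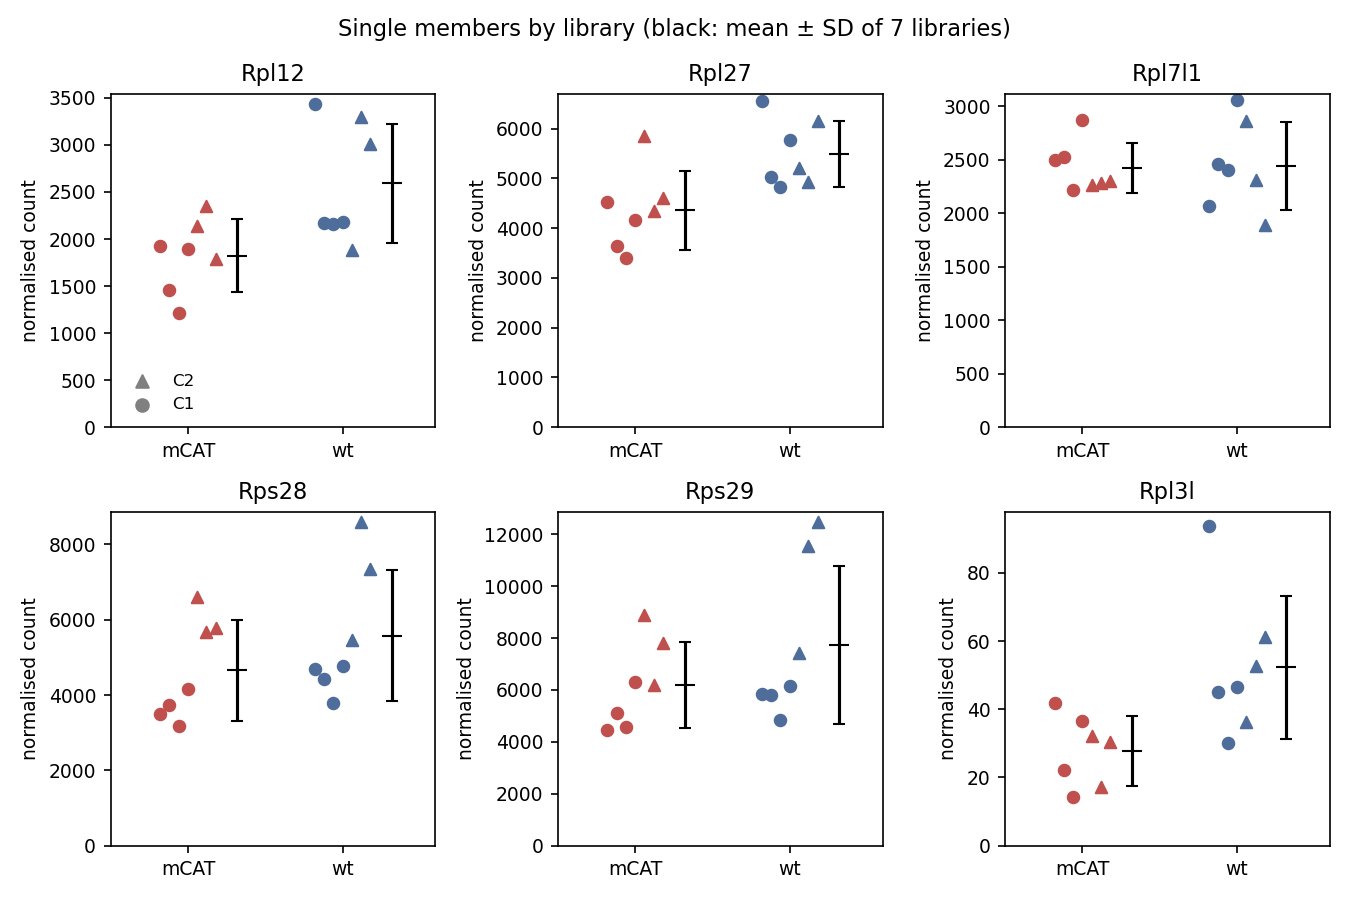
Normalised counts of 6 members in each library, mCAT left of wt, with triangles for C2 and circles for C1 libraries and black bars for the mean ± SD of 7 libraries. Rpl12, Rpl27 and Rpl3l were among the 5 tested members of smallest unadjusted p between genotypes in the limma fit without pairing, Rpl7l1 was the only tested member above 0 (0.0021, and -0.0096 with centred libraries), and the C2 triangles of Rps28 lie above all C1 circles.

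Next in order of p among genes higher in C2 came Rpl36a with a log2 difference of 0.61 (SE 0.17, adjusted p = 0.0630), Rplp1 at 0.45 (SE 0.13, adjusted p = 0.0745) and Rpl32 at 0.65 (SE 0.19, adjusted p = 0.0824), all in limma and none called. Rpl36a ranged from 2736 to 6006 normalised counts over the C2 libraries (median 3729) and from 2139.6 to 2895 over the C1 libraries (median 2642), and its 2 highest values were those of wt 7 and wt 6. Rplp1 ranged from 9107 to 11343 normalised counts over the C2 libraries (median 9747) and from 5518 to 9460.0 over the C1 libraries (median 7169). The 3 genes with a value below 0 were Rpl7l1 at -0.09 (SE 0.13), Rpl6l at -0.07 (SE 0.22) and Rpl3l at -0.03 (SE 0.16). The code series did not overlap in 2 members (2.47%), beside 2.25% of all genes.

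The count of calls in C2 against C1 turned on single libraries and on the block. Without wt 1 it was 24 and without wt 5 it was 29 of 81. Without any of the other 12 it was 1 or 2. Over all 12096 genes tested, calls ran from 202 to 544 with single libraries left out, highest without wt 5. Taking the libraries of a stem as separate gave 29 of 81. It also gave 903 of all genes, where 349 were called with the block. The C2 libraries also held more of the macrophage and microglia markers: all 8 tested microglia markers were above 0 with a median of 0.84, and 3 of them (Cx3cr1, Olfml3 and Gpr34) were called higher. Cx3cr1 averaged 7761 in C2 and 1984 normalised counts in C1 libraries. Sall1, which defines microglia, was too low to be tested and averaged 17.4 in C2 and 10.3 in C1 libraries. Of 12 macrophage markers 11 were above 0 and 5 were called higher in C2, among them Ms4a7 and C1qa. Over all 12096 genes tested 207 were called higher in C2. Summed microglia markers ran from 45066 to 92313 in C2 and from 18843 to 46919.6 in C1 libraries. Summed B cell markers ran from 2677 to 5687 in C2 and from 1431 to 2638 in C1 libraries, without overlap. The 20 most abundant genes took 27.9% ± 3.96 of normalised counts in C2 and 20.5% ± 1.49 in C1 libraries (SD, n = 6 and 8). Their part in the result was not tested.

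Several members belong to pairs of paralogues or have copies elsewhere in the genome, which bears on their counts. Rpl22 and Rpl22l1, of which Rpl22 protein is known in mice to hold down the Rpl22l1 transcript, were measured at similar levels. Rpl22l1 over Rpl22 ran from 0.773 to 0.951 in mCAT and from 0.769 to 1.03 in wt libraries. The log2 difference (mCAT minus wt) was -0.38 (SE 0.17) for Rpl22 and -0.44 (SE 0.20) for Rpl22l1, neither called. Rps27l over Rps27 ran from 0.761 to 1.01 in mCAT and from 0.545 to 1.08 in wt libraries, lowest in wt 6 (0.545) and wt 5 (0.617). Of the 31-base words of Rps27 98.7% occur in the gene Rps27rt, so how reads were divided between those genes is uncertain. Rpl39, at 2546 normalised counts on average, stood far above Rpl39l, which was at 0 in some libraries and at most 21.1 in any.

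Pseudogenes of family members were counted by name (-ps after the symbol of a member), without copies under other names such as Gm15500. They took 0.0837% ± 0.0144 of normalised counts in mCAT and 0.0977% ± 0.0221 in wt libraries (SD, n = 7 each). Of 148 such genes 14 were tested. The most abundant was Rpl10-ps3, at 23542 ± 4902 normalised counts in mCAT and 25869 ± 4875 in wt libraries, 3.73 times the mean of Rpl10. The copies are 96.4% identical over 768 bases, and 92.3% of the 31-base words of Rpl10 occur in Rpl10-ps3. The ratio of Rpl10-ps3 to Rpl10 ran from 3.37 to 4.78 in mCAT and from 3.06 to 4.38 in wt libraries, highest in mCAT 6. This ratio was higher in the mCAT than in the wt library of every stem pair. Which of the pair the reads came from cannot be told from these values. For Rpl10 and Rpl10-ps3 together the mean was 29454 ± 5563 in mCAT and 33207 ± 5693 in wt libraries.

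For Rps12 the split between copies changed from library to library. Rps12-ps3, identical to Rps12 over 494 bases, ranged from 97.0 normalised counts in wt 4 to 1468 in wt 7. Rps12l1 stood at 532 normalised counts in wt 4 and at 0 in the other 13 libraries. The sum of the 3 genes followed the other family members more closely (r = 0.961 over 14 libraries) than Rps12 alone (0.888) or Rps12-ps3 (0.559). Summed, they averaged 1884 ± 669.7 in mCAT and 2517 ± 774 in wt libraries (SD, n = 7 each). Likewise Rpl27-ps3, identical to Rpl27 over 411 bases, was at 0 in 5 libraries and reached 692 in wt 6, and the sum of both had r = 0.856 with the other members where Rpl27 alone had 0.769. For Rps23 and Rps23-ps1 the sum had r = 0.992. Rps23-ps1 was the 1 pseudogene of the 14 tested that was called in C2 against C1 (log2 difference 0.82, adjusted p = 0.0352, limma). Of all genes tested 2.89% were called there.

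Shorter members lay farther from 0 in both comparisons. Over the 80 tested members with a coding length, the log2 difference mCAT minus wt was higher in longer genes (Pearson r = 0.438, Spearman rho = 0.467), and C2 minus C1 was lower in them (r = -0.441, rho = -0.496); these describe genes of the same libraries and carry no test. The 10 members of up to 300 nucleotides had a median difference (mCAT minus wt) of -0.40, the 28 of 300 to 450 nucleotides -0.31, the 19 of 450 to 600 -0.24, the 19 of 600 to 900 -0.21 and the 4 longer ones -0.14. Other genes followed the same order at smaller values, with medians of -0.17, -0.12, -0.06, -0.02 and 0.02 in those bins. Of the 267 other genes of up to 300 nucleotides 83.5% lay below 0, and of the 3341 of 900 to 1500 nucleotides 44.9%. In C2 minus C1 the medians were 0.47 for members and 0.09 for other genes of up to 300 nucleotides, and 0.21 for members and -0.02 for other genes of 900 to 1500. Among 1901 other genes of similar abundance (2429 to 23119.9 normalised counts), the median genotype difference was 0.03 and 43.4% lay below 0. The part that transcript length plays in the family's values was not tested.

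**Figure D5:**
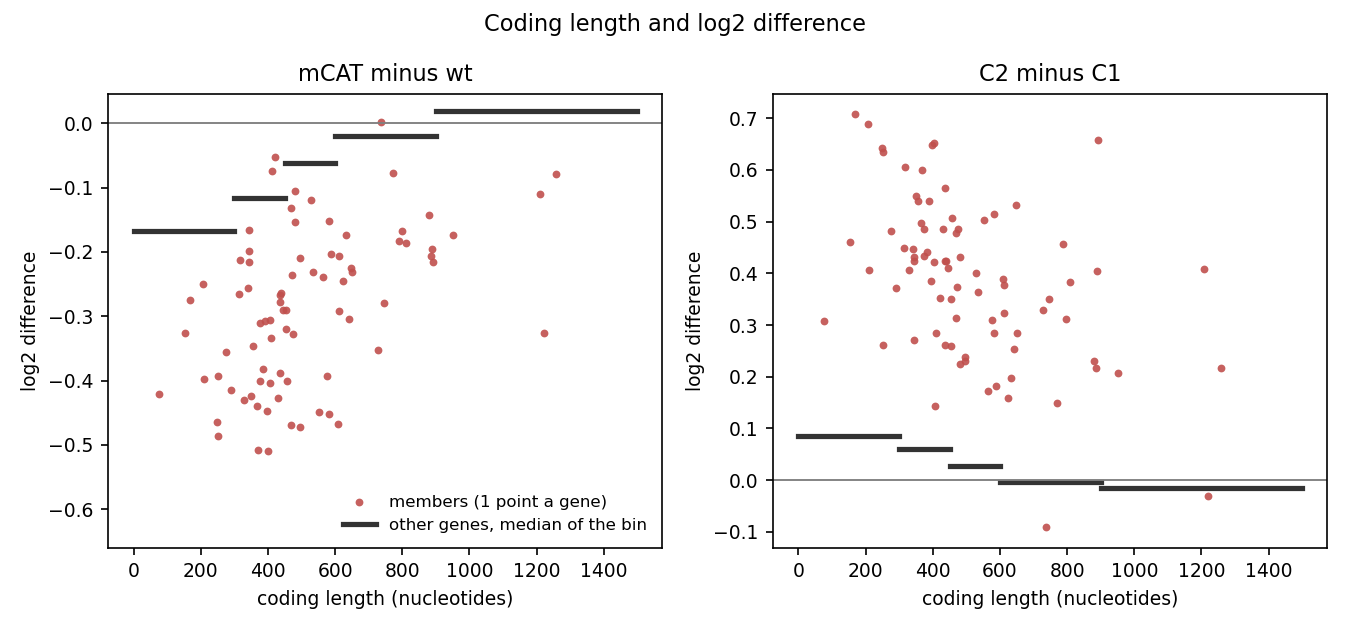
Log2 difference against coding length in nucleotides for mCAT minus wt on the left and C2 minus C1 on the right; red points are 80 members and black bars are the medians of other genes in bins of coding length. Short genes lie lower on the left, with medians of -0.40 for members and -0.17 for other genes of up to 300 nucleotides.

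Genes outside the family whose log2 values lay closest to the family mean over the 14 libraries included Ssr4 (r = 0.973), a subunit of the translocon-associated protein complex of the endoplasmic reticulum, Gm5148 (0.968), the tubulin cofactor gene Tbca (0.963) and the cytochrome oxidase gene Cox4i1 (0.963). Pfdn5 (0.952), Naca (0.950), Uqcrh (0.947) and Rps3a1 (0.943) were also among the 15 closest. The 5 ribosomal protein genes outside the name rule all lay below 0 between genotypes with a median of -0.28; Rpl36al stood at 5276 ± 664 in mCAT and 6432 ± 709 in wt libraries. In C2 minus C1 all 5 were above 0, with a median of 0.31.

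Other gene groups of translation had medians nearer to 0 between genotypes, a difference from the family that was not tested. Of 13 further mRNAs with a TOP start 11 lay below 0 in mCAT minus wt (median -0.17, none called). Among them Tpt1, the gene of translationally controlled tumour protein, stood at 12407 ± 2180.2 in mCAT and 16919.5 ± 4022 in wt libraries (log2 difference -0.43). Of 11 elongation and termination factors 7 lay below 0 (median -0.06), of 34 initiation factors 18 (median -0.03), of 30 genes of RNA polymerases I and III and their factors 16 (median -0.02), and of 19 mTORC1, MYC and LARP1 genes 15 (median -0.07). None of these was called between genotypes, nor was any of 17 genes of stalled ribosome rescue, of which 7 lay below 0, or of the 5 genes that link Rpl5 and Rpl11 to p53. Larp1 itself stood at 572 ± 96.0 in mCAT and 701 ± 213 in wt libraries.

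Most nucleolar assembly factors had lower values in C2 than in C1. Of 60 such genes 53 lay below 0 in C2 minus C1 (median -0.19), where 3 of the 81 ribosomal protein genes did. Called lower in C2 were 2 of the 60, beside 142 of all 12096 genes tested. The 2 were Nop58, a core protein of the box C/D particles that modify ribosomal RNA, and Noc4l. Nop58 stood at 804 in C2 and 1209 normalised counts in C1 libraries (adjusted p = 0.0219, limma). Noc4l stood at 1759.7 in C2 and 2715 in C1 libraries (adjusted p = 0.0428, limma). Between genotypes 39 of the 60 lay below 0 (median -0.07) and none was called. Mdm2, the p53 ligase, was also called lower in C2, at 3003 in C2 and 4680.4 in C1 libraries (adjusted p = 0.0428, limma).

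Genes of the mitochondrial ribosome and the respiratory chain also had mostly lower values in mCAT. Of 78 mitochondrial ribosomal protein genes 66 lay below 0 in mCAT minus wt (median -0.14), and of 84 nuclear-encoded respiratory chain genes 75 did (median -0.24), none called. In C2 minus C1 the median was -0.02 for the mitochondrial ribosome and 0.10 for the respiratory chain. All 12 tested mitochondrially encoded genes lay below 0 in mCAT minus wt with a median of -0.42, and -0.20 with pairing, none called. They took 0.839% ± 0.252 of normalised counts in mCAT and 1.23% ± 0.685 in wt libraries (SD, n = 7 each), with 2.69% in wt 1. Their part in the family's values was not tested.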

How the data were processed

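Per the labels, RNA of sorted macrophages was made into polyA libraries by Smart-seq2, and the submitters' processing notes name FastQC, fastp, Salmon and GRCm39. The authors deposited 1 table of 19940 genes and 14 libraries on a log2 scale. Its values look like counts after a variance-stabilising transformation, with 1 lowest value shared by all libraries; the sources used here do not say how it was made. It was inverted to give normalised counts, so depth is an estimate from the step between low values, and 0 columns of per-sample values were left unused.

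Genes with a normalised count of at least 10 in at least 7 libraries (12096) were tested on the deposited scale with limma 3.58.1 (R 4.3.3, statmod 1.5.0; trend and robust moderation), with Benjamini-Hochberg adjustment over all of them and a threshold of 0.05. mCAT was compared with wt without pairing, C2 with C1 with genotype as covariate and stem as random block (correlation 0.449), and both in an interaction. Within-gene tests were exact permutations of 7 against 7 and, for some genes, exact sign flips over the 6 stem pairs, all two-sided. Over all genes tested, libraries of 1 stem deviated together in all 6 pairs (correlations 0.232 to 0.659), so the stem was taken as pairing, although the labels do not state it. Only genotype means were removed first, so a shared code series can also raise these values, and they do not establish pairing. Over the family alone stem pairs ran from 0.036 to 0.384. There mCAT 1 with wt 1, mCAT 2 with wt 2 and mCAT 3 with wt 3, of different stems, were at 0.193, 0.512 and 0.703. The family and the gene lists were chosen with earlier results of these data known. Family members with values were those called, the 5 of smallest p in each direction, the extremes of level, spread and correlation, and those named for a role. Genes of other lists were those called or the 2 of smallest p in each. Rps7, Rpl35 and single cell type markers were chosen after their values were seen. Coding lengths came from GENCODE M21 and starts from RefSeq, both on GRCm38 and matched by name or identifier. Fits were checked on simulated data. Summaries and plots used Python 3.11.15, numpy 2.4.6, pandas 2.3.3 and matplotlib 3.10.9. Results for some genes are not reported here.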

Additional observations from a re-analysis of the deposited data

How the results depend on the processing

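In mCAT against wt, no member was called and the median of the family stayed below 0 under every alternative run, with medians of -0.34 to -0.21, 79 to 81 genes below 0 and 18 to 25 of all genes called when each library was left out in turn. With the stem as a replicate block, 39 of all genes were called, against 24 without it, and no member. The summed share (mCAT minus wt) ran from -0.501 to -0.336 percentage points without single libraries. It was -0.303 percentage points with the stem as a replicate block. In C2 against C1, members called were 1 with a filter of 50 normalised counts (where 1 member lay below 0), 1 with centred libraries, 1 without trend and robust moderation, and 29 with no replicate block, where 903 of all genes were called against 349. Without single libraries members called ran from 1 to 29, members below 0 from 1 to 3, all genes called from 202 to 544 and the median from 0.34 to 0.48; the interaction called 0 to 0 members. The cause was not tested.

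Among the members named, signs turned in 4 genes. Rpl7l1 (mCAT minus wt) was at -0.013 with the stem block, -0.0096 with centred libraries, -0.032 without wt 1, -0.0057 without mCAT 1, -0.0079 without mCAT 2, -0.038 without mCAT 4, -0.0079 without wt 6 and -0.053 without wt 7 (over all libraries left out, -0.053 to 0.057), and Rpl28 was at 0.0026 with the stem block. In C2 minus C1, Rpl3l was at 0.052 without wt 1, 0.0059 without wt 5 and 0.016 without mCAT 6 (lowest -0.089 without mCAT 3), and Rpl6l at 0.00019 without wt 1 and 0.013 without mCAT 4 (lowest -0.16 without wt 4). Centring cancels out of the share and gave no value. Low counts limit what the values of Rpl3l, Rpl6l, Rpl39l and Rpl32l can show.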
